A study of Mus musculus with 9 samples.

Results

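Hepa 1-6 is a liver tumour line of the mouse, and the transcripts described here are those of its untargeted form: the 3 control libraries (sgControl) of a series of 9. They were chosen by their sample titles and not by any measured value. The other 6 libraries come from 3 samples each of Usp5 knockout and Ythdf1 knockout cells of the same line, and serve below only for comparison. Per the labels, all cells were kept in DMEM with 10% fetal bovine serum, which supplies growth factors and plasma proteins from outside. Ythdf1 was targeted with CRISPR/Cas9/EGFP plasmids and Usp5 with a lentiviral CRISPR vector, and the knockout cells were single-cell clones checked by immunoblot. Whether the control cells also passed through cloning, how many clones each knockout stands for and whether the replicates were separate cultures are points on which the labels are silent, and the spread between replicates may therefore be technical.

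The hepatocyte is the secretory and metabolic cell of the liver: it makes most plasma proteins, disposes of ammonia through the urea cycle, releases glucose, makes bile acids and oxidises drugs through cytochrome P450 enzymes. In the fetal liver its precursors make alpha-fetoprotein before albumin takes over, and hepatomas often carry fetal transcripts again. The levels below give an inventory of these programs in the control cells for 715 gene symbols in 29 lists, of which 713 were found.

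Levels are length-scaled abundances, counts divided by gene length and scaled to a sum of 1000000 in each library, written as TPM. A gene was taken as expressed when it reached at least 1 TPM in all 3 control libraries. Values after ± are SDs over these 3 libraries (n = 3), and where 3 values stand together they belong to control replicates 1, 2 and 3 in that order. Because the baseline is 1 group, its levels carry no test. A count of 0 leaves room for a transcript below the level of 3 counts, which for a length of 1 kb was 0.1364 to 0.2301 TPM in the control libraries. Such limits cover counting error only. The lengths are those deposited with the counts. Length was checked in 501 genes at a mean of at least 1 TPM: listed and paired genes, both targets and the most abundant genes of any kind. With the effective lengths of the same table in their place, a choice made after seeing the data, 95 of the 501 levels moved by more than 1.5-fold. Among them were Apoe, Hmga1, Fn1, Krt8 and Myc. Leaving out control replicate 3 moved 6 of the 501 by more than 1.5-fold. All 6 were mitochondrially encoded genes or nuclear copies of such genes: mt-Nd1, mt-Nd2, mt-Nd4, mt-Cytb, Gm10925 and Gm28661.

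The control libraries held 24760877 to 41903529 counts, within the range of the whole series (24760877 to 42989715). Replicate 3 was the shallowest and stood apart: transcripts of the mitochondrial genome and of 5 near-identical nuclear copies made up 5.42%, 5.86% and 14.96% of abundance, and ribosomal protein genes 15.92%, 15.62% and 12.002%. Across the 8124 protein-coding genes at a mean of at least 10 TPM the median coefficient of variation was 10.2%, and 86.5% of them lay within 1.5-fold over the libraries. A 2-fold spread was seen in 114 genes, and replicate 3 was the extreme library in 113 of these. The 10 widest were mt-Atp6 (39.5-fold), mt-Co2, Gm20390, Fam174c, mt-Atp8, C130026I21Rik, mt-Nd2, Pcdhgc4, Taf9 and mt-Nd4; 5 are mitochondrially encoded, and 3 of those (mt-Atp6, mt-Co2 and mt-Nd4) share their sequence with a nuclear copy, so that reads can be split between both. Usp5 stood at 169, 165 and 124 TPM in the control libraries and at 78.1, 70.5 and 78.5 in the Usp5 knockout libraries. Ythdf1 stood at 130.1, 125 and 124 TPM in the control libraries and at 27.10, 25.97 and 27.76 in the Ythdf1 knockout libraries. Neither pair of groups overlapped, so both targeted genes followed the labels.

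Of 53647 genes in the table, 11466 were expressed in control cells, and 10666 of these were protein-coding (48.8% of the 21848 protein-coding genes). No count at all was found for 6152 protein-coding genes (28.2%). Mean levels of at least 1000 TPM were reached by 127 protein-coding genes, 1641 lay from 100 to under 1000 TPM and 6356 from 10 to under 100 TPM. The 100 most abundant genes held 31.0 ± 3.32% of all abundance. They comprised 44 ribosomal protein genes, 7 mitochondrially encoded genes, 3 nuclear copies of mitochondrial genes and 46 others.

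Among the other abundant transcripts were those of glycolysis (Gapdh at 9282 ± 599 TPM), translation (Eef1a1 at 8121 ± 778), iron storage (Fth1 at 3517 ± 78.7) and protein folding (Hspa8 at 3689 ± 52.5). Apoe was the most abundant of the listed genes and ranked 11 among all protein-coding genes. Sprr1a, a cornified-envelope precursor known from squamous epithelia, ranked 13, at 3355, 3150 and 5444 TPM, highest in replicate 3. The leading 100 included 7 listed genes: Apoe, Lgals1, Clu, Hmga1, Fn1, Krt18 and Igfbp4. In all, 419 of the 713 listed genes found in the table were expressed (58.8%), and 104 had no count in any control library.

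**Figure D1:**
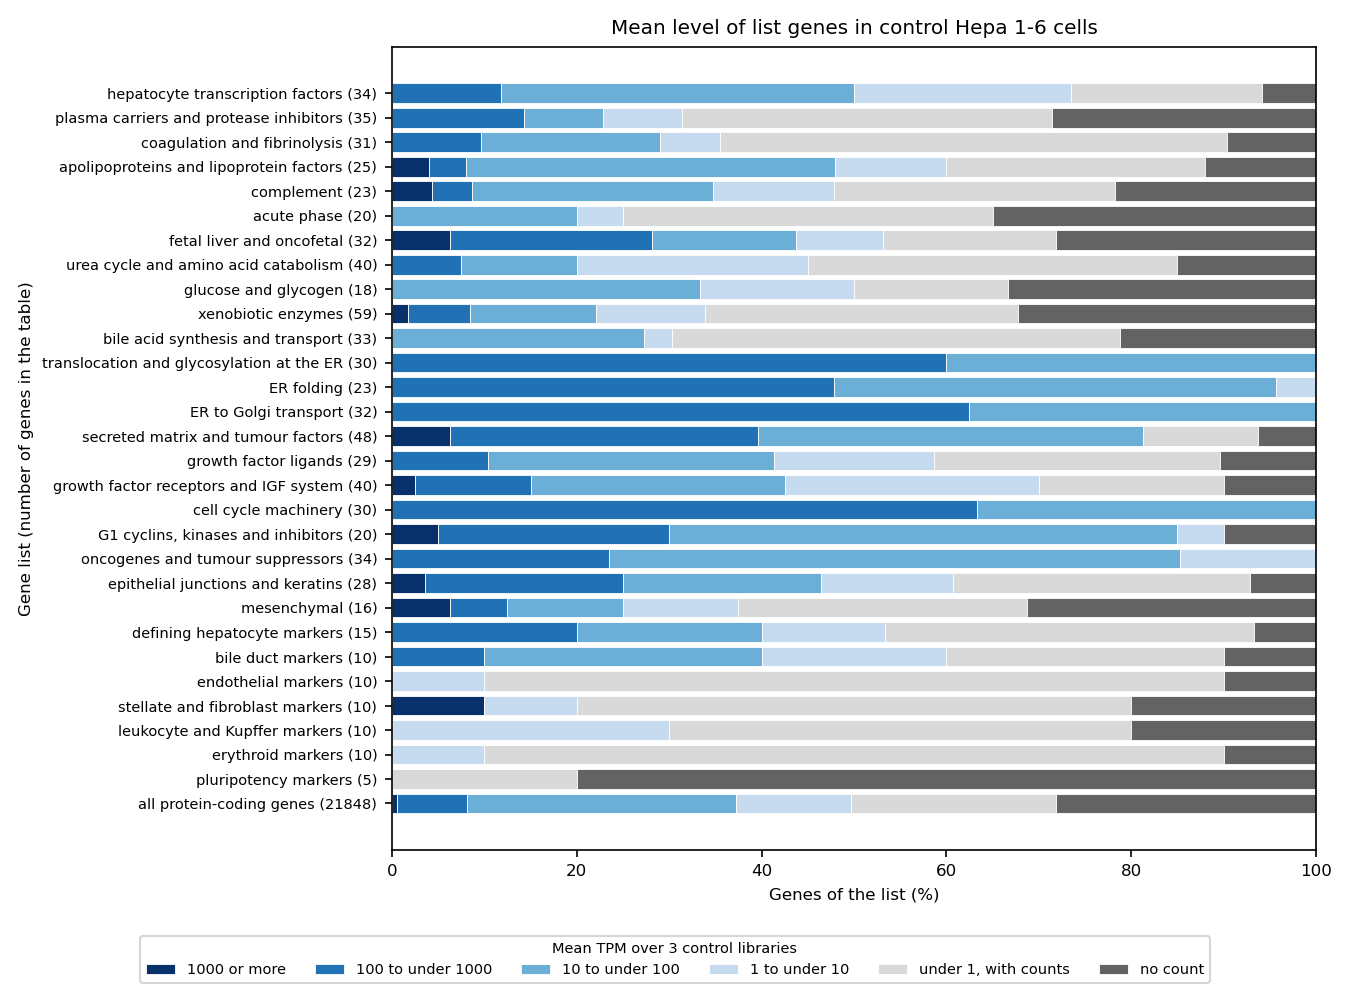
Share of the genes of each list (x axis, percent) by mean TPM over the 3 control libraries, with the number of genes in the table in parentheses and all protein-coding genes at the bottom. The secretory, cell cycle and oncogene lists have no gene under 1 TPM, whereas acute phase genes are mostly under 1 TPM or without a count.

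The transcription factors that specify hepatocytes were mostly present. Of 34 listed factors 25 were expressed, with a median of 9.99 TPM. Hnf4a, the nuclear receptor that maintains hepatocyte identity, was the most abundant at 233, 223 and 211 TPM, and the 3 libraries lay close together. Cebpb (210.3 ± 16.9 TPM), Hhex (119 ± 18.8) and Foxa2 (101 ± 18.3) also exceeded 100 TPM. Foxa3 stood at 38.5 ± 4.44 TPM and Cebpa, the factor of the mature resting hepatocyte, at 33.3 ± 4.71. Effective length, chosen after seeing the data, put Cebpb, Foxa2 and Cebpa at 0.414, 0.578 and 0.489 of these levels. Whether Cebpb and Foxa2 exceeded 100 TPM therefore depends on the length used.

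The 9 factors not expressed were mostly regulators of adult metabolism. Nr1i2 and Nr0b2, a drug-sensing receptor and the repressor that restrains bile acid synthesis, had no count. Ppara, the receptor that drives fatty acid oxidation on fasting, had 14 counts over the 3 libraries (0.0676 ± 0.0537 TPM). Nr1i3 (0.699 ± 0.0536 TPM), Mlxipl (0.373 ± 0.182), Creb3l3 (0.186 ± 0.103), Klf15 (0.102 ± 0.0606), Hlf (0.0614 ± 0.0432) and Gata6 (2 counts) were also below the threshold. Other nuclear receptors of the list were expressed: Nr1h4, the bile acid receptor, stood at 4.53 ± 0.280 TPM and Nr1h3 at 7.36 ± 0.314.

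Plasma carriers and protease inhibitors showed a few high transcripts and many missing ones. Only 10 of 35 were expressed (28.6%), against 48.8% of all protein-coding genes, and the median was 0.17 TPM. Alb, the main carrier of adult plasma, was measured at 550.3, 544 and 645 TPM. Afp, its fetal relative, was measured at 1070, 1101 and 941 TPM and exceeded Alb in every library, by 1.81 ± 0.305-fold. The third member of the family, Afm, which carries vitamin E, lies next to Afp on chromosome 5 and had 35 counts in all (0.328 ± 0.189 TPM). One chromosomal cluster thus held a fetal gene and an adult gene near the top of the transcriptome and a neighbour below the threshold.

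The promoters of neighbouring genes that differed widely in level are shown here, a choice made after the values had been seen. The 250 bases upstream of each start, from RefSeq on GRCm38.p6, were searched on both strands for CCAAT, the letters of a common promoter box, also chosen afterwards. On the opposite strand they read ATTGG. Capitals mark each match in the promoters of the albumin family. All run 5′ to 3′ in the direction of the gene.
Alb (chr5:90460620-90460869, plus strand): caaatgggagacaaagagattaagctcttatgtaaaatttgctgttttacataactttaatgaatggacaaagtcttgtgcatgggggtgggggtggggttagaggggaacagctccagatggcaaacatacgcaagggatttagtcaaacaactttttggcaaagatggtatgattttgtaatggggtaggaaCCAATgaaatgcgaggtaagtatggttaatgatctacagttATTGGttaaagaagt
Afp (chr5:90490464-90490713, plus strand): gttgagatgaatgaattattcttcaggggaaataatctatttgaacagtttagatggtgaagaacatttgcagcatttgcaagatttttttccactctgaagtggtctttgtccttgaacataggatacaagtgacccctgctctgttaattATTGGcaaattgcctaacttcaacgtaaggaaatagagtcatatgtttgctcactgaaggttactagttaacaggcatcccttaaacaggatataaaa
Afm (chr5:90518699-90518948, plus strand): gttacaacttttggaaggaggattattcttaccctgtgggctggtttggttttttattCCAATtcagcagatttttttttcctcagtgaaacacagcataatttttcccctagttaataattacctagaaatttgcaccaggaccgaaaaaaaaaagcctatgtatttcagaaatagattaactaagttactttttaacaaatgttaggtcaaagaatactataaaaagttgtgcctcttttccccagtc

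Alb held a pair of matches, beginning 56 and 15 bases before the end of its window. The windows end at reference starts, which may differ from the starts of transcription and were not checked here. Afp held 1, beginning 98 bases before the end of its window, and Afm, which was not expressed, held 1, beginning 192 bases before. The fibrinogen genes Fgb, Fga and Fgg, described below, had none in this window. The letters occurred in 9314 of 27025 mouse promoters of this length (34.5%). Of the plasma protein genes with a promoter entry, 10 of 33 expressed genes held them (30.3%) and 17 of 66 genes that were not expressed (25.8%). All 5 Serpina1 genes held them, none of which was expressed. A match of these letters is a description of the window and not a bound site.

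Other carriers were abundant. Rbp4, the retinol carrier, stood at 846, 847 and 646 TPM, Selenop, which delivers selenium, at 489, 508 and 735, and Trf, which delivers iron, at 610.3, 609 and 456. Replicate 3 was lowest for Rbp4 and Trf and highest for Selenop. Itih2, a heavy chain that stabilises hyaluronan, was at 235 ± 25.6 TPM. Hpx, the haem scavenger (59.5 ± 20.9 TPM), Fetub (14.9 ± 1.36), Cp, the copper ferroxidase (12.3 ± 0.778), Gc, the vitamin D carrier (8.89 ± 0.757), and Azgp1 (6.43 ± 0.991) completed the expressed members.

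The carriers and inhibitors that were missing include several of the most abundant products of adult liver. Ttr, the carrier of thyroid hormone and retinol-binding protein, had 7 counts over the 3 libraries and stood at 0.153, 0.0406 and 0.129 TPM. Ahsg had 14 counts, Apoh 5 and Ambp 18. Of the Serpina1 genes, mouse forms of alpha-1-antitrypsin, Serpina1b had 22 counts, Serpina1c 18, Serpina1a 4, and Serpina1d and Serpina1e none. These genes are near-identical, so the split of counts among them is uncertain. Hrg, Vtn, Serpina3k, A1bg, Mup3 and Mup20 had no count. In the cluster on chromosome 14, Itih3 and Itih4 had no count and Itih1 had 1, while Itih2, which lies elsewhere, had 38802.

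**Figure D2:**
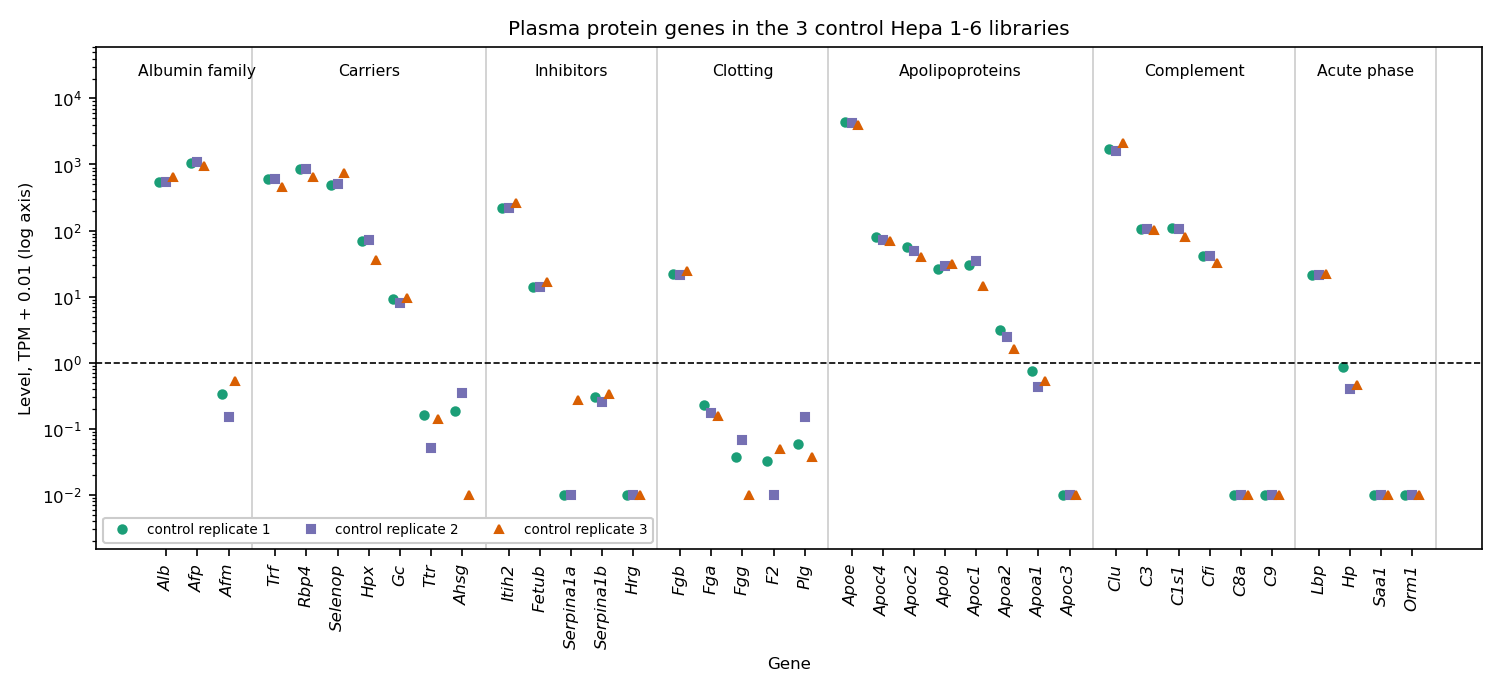
Level of plasma protein genes (TPM + 0.01, log axis) in each control library, grouped by role; the dashed line marks 1 TPM, and points at 0.01 are libraries without a count. Every group holds genes above 10 TPM beside genes below the dashed line.

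Coagulation genes followed the same split. Of 31 listed genes 11 were expressed, with a median of 0.22 TPM. Genes made by many tissues were among the leading ones, such as the urokinase receptor gene Plaur (177 ± 7.96 TPM) and Plat, tissue plasminogen activator (127 ± 12.98). F3, tissue factor, stood at 31.6 ± 3.99 TPM. The vitamin K enzymes that modify clotting factors were present, Vkorc1 at 55.4 ± 9.60 TPM and Ggcx at 12.8 ± 1.83. Their substrates were mostly absent: F2, prothrombin, had 2 counts, F9 5, and F7 and F10 none. Pros1 (38.3 ± 3.81 TPM) and Proc (7.42 ± 1.30) were the expressed exceptions.

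Fibrinogen is a hexamer of 3 chains encoded by neighbouring genes on chromosome 3. Fgb, the beta chain, stood at 22.3, 21.4 and 24.7 TPM and 4789 counts. Fga, the alpha chain, had 21 counts and Fgg, the gamma chain, 3. The level of Fgb exceeded that of Fga by 134 ± 32.8-fold, with 102-fold in the lowest library and 168-fold in the highest. The 3 chains were therefore far from equal in transcript level, and the 2 low ones rest on few counts.

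Apolipoprotein genes, which encode the protein parts of lipoproteins, split by chromosomal cluster; this grouping was made after the values had been seen. Of 25 apolipoprotein and lipoprotein genes 15 were expressed, with a median of 9.79 TPM. Apoe, the ligand for clearance of remnants, stood at 4471, 4213 and 3937 TPM and carried 83.7% of the summed level of the list. Its neighbours on chromosome 7 were also expressed, Apoc4 at 74.5 ± 5.81 TPM, Apoc2, the activator of lipoprotein lipase, at 48.8 ± 7.98 and Apoc1 at 26.4 ± 10.5. In the cluster on chromosome 9, Apoc3 and Apoa4 had no count, and Apoa1, the main protein of high-density lipoprotein, stood at 0.747, 0.419 and 0.519 TPM with 33 counts. Apoa5, in the same cluster, was at 0.704 ± 0.190 TPM. Apob, the core protein of very low density lipoprotein, and Mttp, which loads lipid onto it, were present at 28.8 ± 2.86 and 13.5 ± 1.04 TPM.

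Complement and acute phase genes were represented by a few members. Clu, which restrains the terminal complement complex, was measured at 1719, 1610 and 2151 TPM and made up 84.0% of the complement list's summed level. C3, the central component, stood at 107, 106 and 101 TPM, with little spread between libraries. C1s1 (98.5 ± 15.5 TPM), Cfi (38.4 ± 5.34), Cfb (36.2 ± 7.20), C1ra (26.6 ± 3.29) and C2 (21.2 ± 3.01) were expressed as well. The genes of the terminal pore were not: C8a, C8b and C9 had no count and C6 had 1, while Hc, encoding C5, was just above the threshold at 1.48 ± 0.367 TPM. Of 20 acute phase genes 5 were expressed, Hpx, Cd14, Il1rn, Lbp and Fgl1. Saa1, Saa2, Orm1, Orm2, Orm3 and Apcs had no count, and Hp, haptoglobin, stood at 0.565 ± 0.244 TPM.

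Of the metabolic work of the hepatocyte, isolated steps were present. In the urea cycle, the cytosolic enzymes Asl (79.4 ± 16.0 TPM) and Ass1 (34.6 ± 1.62) were expressed, whereas Cps1, the entry enzyme, had 7 counts and Otc and Arg1 had none. Glul, which fixes ammonia as glutamine in the cells around the central vein, was at 273, 277 and 279 TPM in the 3 libraries, which hardly differed. Ahcy, which splits S-adenosylhomocysteine, was the highest of the amino acid list at 392 ± 57.6 TPM. Of its 40 genes 17 were expressed. Enzymes that break down aromatic amino acids were mostly low or missing: Tdo2 had 2 counts and Hpd and Hgd none, although Fah, the last enzyme of tyrosine breakdown, was at 15.3 ± 0.400 TPM and Tat, the first, at 1.70 ± 0.0703.

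Glucose output and glycogen storage lacked several liver enzymes. G6pc, Pck1, Gckr and Gys2 had no count in any control library and Fbp1 had 1. Pklr, the liver pyruvate kinase, was expressed at 67.0, 66.4 and 65.4 TPM, and Pck2, the mitochondrial carboxykinase, at 42.5, 42.1 and 24.6, lowest in replicate 3. Khk, which opens fructose breakdown, was near the threshold at 1.75 ± 0.259 TPM.

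Of 59 genes of drug metabolism 19 were expressed and 19 had no count, with a median of 0.06 TPM. Aldh1a1, a retinaldehyde dehydrogenase, stood at 1090, 1164 and 892 TPM and Aldh2, which oxidises acetaldehyde, at 685, 666 and 472. Por, the reductase that feeds electrons to microsomal P450 enzymes, was at 175 ± 19.4 TPM. The P450 enzymes themselves were led by Cyp2s1 (99.95 ± 11.7 TPM), Cyp1a1 (36.3 ± 8.92) and Cyp3a13 (12.4 ± 0.416). The main P450 enzymes of adult liver were absent: Cyp2e1, Cyp3a11, Cyp2c37 and Cyp2c50 had no count, Cyp2c29 had 5 and Cyp1a2 9. Ugt1a1, which conjugates bilirubin, had no count.

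Of 33 bile acid genes 10 were expressed, and export pumps were among the highest. Abcc2, the canalicular pump for conjugates, stood at 67.5 ± 2.87 TPM, Abcc3 at 46.3 ± 4.37 and Abcc4 at 41.6 ± 1.47. Cyp7a1, the rate-limiting enzyme of bile acid synthesis, had 1 count in the 3 libraries together, and Cyp8b1, Akr1d1, Abcg5 and Abcg8 had none. Slc10a1, the sodium-dependent bile acid importer, had 11 counts, and Abcb11, the bile salt export pump, 20. Cyp27a1 (14.3 ± 1.95 TPM) and Cyp7b1 (3.96 ± 0.0774), of the alternative route, were expressed.

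Fetal and oncofetal genes ranged from the top of the transcriptome to no count. Of 32 listed genes 15 were expressed, 9 of them at a mean of 100 TPM or more, and 9 had no count. Hmga1, a chromatin protein of embryonic and tumour cells, stood at 1720, 1589 and 1949 TPM, above Afp in each library. Gstp1, a glutathione transferase induced in rodent liver tumours, was at 663, 643 and 567 TPM. Cd44 (293 ± 40.9 TPM), Tspan8 (256 ± 28.1), Akr1b8 (164 ± 16.3), Cd24a (137 ± 32.0) and Igf2bp1, an mRNA-binding protein of the embryo (131 ± 14.3), followed. Gpc3, a cell-surface glypican used as a marker of hepatocellular carcinoma, was at 40.0, 42.7 and 41.6 TPM, and Lgr5, a receptor of Wnt-responsive progenitors, at 27.9, 28.6 and 36.6.

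Imprinted genes of this list were low or without a count. Dlk1, Meg3, Rian, Peg3, Peg10, Plagl1 and Cdkn1c had no count, H19 had 5 counts, Mest 5 and Grb10 40. Igf2, which shares its locus with H19, stood at 1.79, 1.92 and 0.765 TPM and was under the threshold in replicate 3. Lin28a and Sall4, factors of early progenitors, had no count, and Lin28b had 25. The description of these genes as a group was made after the values had been seen.

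Pairs of related genes gave a within-library comparison of the adult liver form with the form used elsewhere or earlier. Of 18 pairs, the other form was higher in all 3 libraries in 16, and the adult form in 2. Pkm exceeded Pklr by 28.5 ± 3.01-fold, Slc2a1 exceeded Slc2a2, the liver glucose transporter, by 112 ± 24.0-fold, and Mat2a exceeded Mat1a, which makes S-adenosylmethionine in adult liver, by 724 ± 306-fold. The first 2 ratios depend on the length used. Counts alone gave 57.9 for Pkm over Pklr and 193.3 for Slc2a1 over Slc2a2, and effective length, chosen after seeing the data, gave 22.7 and 74.0. Since Gys2 and Pck1 had no count, 3 counts over the 3 libraries were taken as the floor. On that floor, with counts summed over the libraries and divided by length, Gys1 was at least 914-fold above Gys2, and Pck2 at least 1301-fold above Pck1.

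A smaller ratio was found for the desaturases, Scd2 over Scd1 at 3.27 ± 0.764-fold. Cdh2, N-cadherin, exceeded Cdh1, E-cadherin, by 359 ± 116-fold, the libraries giving 288, 296 and 493. Acsl1 was above Acsl4 in every library (ratio of Acsl4 to Acsl1 0.573 ± 0.0512, and 0.926 with effective length). The call for Cpt1c over Cpt1a, 1.496 ± 0.0960-fold, rests on gene length, since their counts alone gave 0.923.

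**Figure D3:**
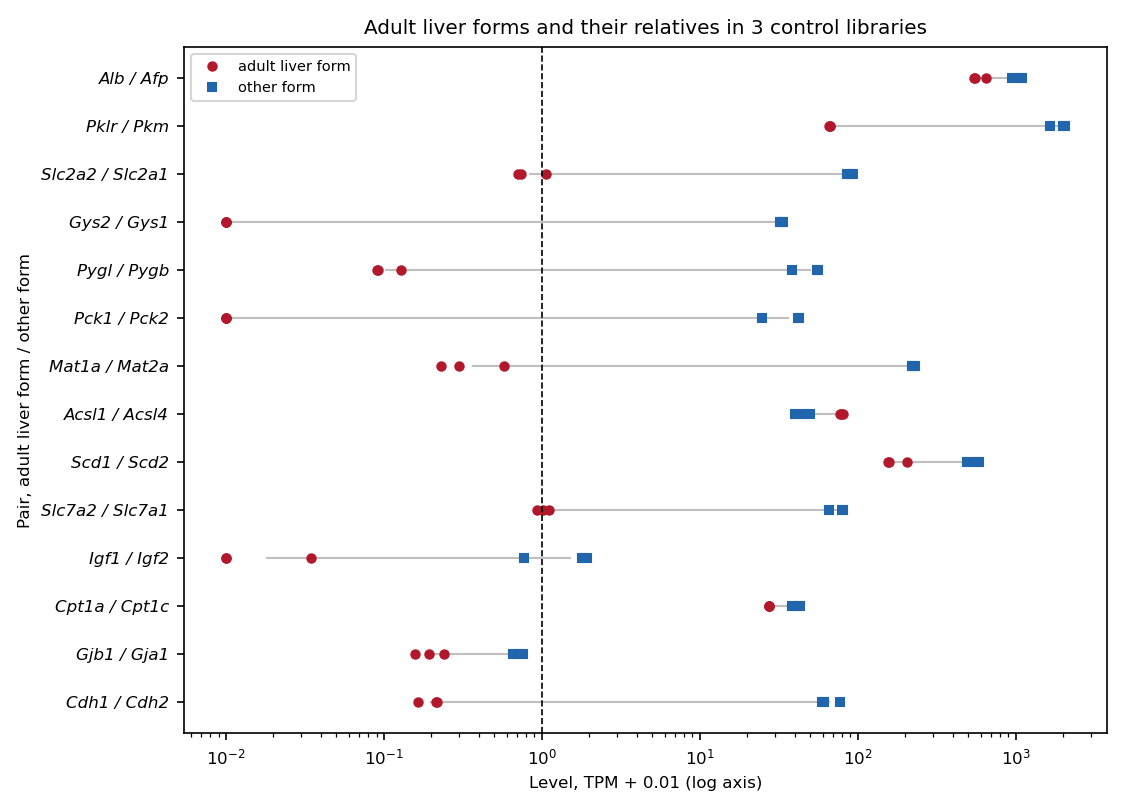
Level (TPM + 0.01, log axis) of the adult liver form (circles) and the other form (squares) of 14 of the gene pairs in the 3 control libraries; grey lines join the means and the dashed line marks 1 TPM. The squares lie to the right in 13 pairs, and circles at 0.01 are libraries without a count.

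The listed part of the machinery for making secreted proteins was expressed without a gap. All 85 listed genes of translocation and glycosylation, folding and transport to the Golgi were expressed, with medians of 130.1, 87.2 and 123 TPM. Calr, a chaperone of glycoproteins, stood at 712, 722 and 724 TPM, nearly the same in each library. Ssr2, a subunit of the translocon-associated complex, was at 592, 535 and 552 TPM and Arf1, the GTPase that recruits Golgi coats, at 697, 679.6 and 548. The chaperone genes Hspa5 (451 ± 46.9 TPM), Hsp90b1 (445 ± 47.7), Pdia3 (543 ± 42.5) and P4hb (529.6 ± 76.3) were at similar levels. The lowest of the 85 was Ero1b, an oxidase, at 2.72 ± 0.765 TPM.

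Secreted matrix and tumour factors were a prominent product of the control cells. Of 48 genes 39 were expressed, every one of them at a mean above 10 TPM, with a median of 80.1 TPM over the list. Lgals1, a galectin, stood at 2193, 2119 and 1468 TPM, Fn1, fibronectin, at 1569, 1486 and 1710 and Dcn, the proteoglycan decorin, at 987, 1028 and 1365. The lysosomal proteases Ctsl (775 ± 99.4 TPM) and Ctsd (649 ± 148) and the cytokine Mif (675 ± 111) came next. Spp1, osteopontin, was at 378 ± 16.6 TPM, Ccn2 at 338 ± 23.0 and the chemokine Ccl2 at 89.0 ± 7.73. Ptn, Cxcl12 and Lox had no count.

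Of 29 growth factor ligand genes 16 were expressed, and ligands of the ErbB receptors were among the highest. Nrg1 stood at 136, 128 and 146 TPM, Hbegf at 106, 106 and 101, Areg at 77.1, 78.8 and 92.2 and Tgfa at 66.5, 65.4 and 67.7. Egfr, the receptor of the last 3, was at 71.2, 73.6 and 81.4 TPM, Erbb2 at 17.5 ± 2.15 and Erbb3 at 1.43 ± 0.0347, while Erbb4 had no count. Hgf, the ligand of Met, had no count, although Met itself stood at 62.5, 67.5 and 65.7 TPM. Axl, the receptor of Gas6, was at 249.5 ± 18.8 TPM and Gas6 at 71.8 ± 7.96. Epha2, an ephrin receptor, was at 210.1 ± 24.5 TPM.

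The insulin-like growth factor system was present mainly as binding proteins, with low levels of the ligands and of Igf1r. Igfbp4 was the highest at 1564, 1463 and 1125 TPM, followed by Igfbp3 at 402, 394 and 469 and Igfbp1, the form made by liver under insulin control, at 263, 272 and 197. Of the ligands, Igf2 stood at 1.79, 1.92 and 0.765 TPM and Igf1 had 1 count. Igf1r, the receptor of Igf1, had 31 counts over the 3 libraries (0.0319, 0.0802 and 0.0269 TPM). Insr, the insulin receptor, stood at 13.4, 13.7 and 12.3 TPM and so exceeded Igf1r in every library, by 171-fold at the least. Prlr and Gcgr, receptors for prolactin and glucagon that adult hepatocytes carry, had no count, and Ghr, the growth hormone receptor, was at 5.14 ± 0.935 TPM.

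All 30 genes of the cell cycle machinery were expressed, at a median of 139 TPM. Cdk1 stood at 521, 535 and 328 TPM, lowest in replicate 3, Mcm7, of the replicative helicase, at 434 ± 30.8 and Pcna, the sliding clamp, at 373, 391 and 368. Among the G1 regulators Cdk4 was the highest at 1029, 1012 and 973 TPM, 18.9 ± 1.85-fold above its relative Cdk6. Ccnd1 was at 459, 456 and 419 TPM and Ccnd2 had no count. Of the inhibitors, Cdkn1a stood at 205 ± 15.5 TPM, Cdkn2b at 64.6 ± 4.54 and Cdkn2a at 10.4 ± 2.68. Trp53, which drives Cdkn1a, was at 474, 443 and 497 TPM, and Rb1, the restraint on S phase entry, at 3.01, 4.08 and 5.03. Transcript level says nothing of mutation in any of these genes.

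All 34 oncogenes and tumour suppressors listed were expressed as well. Ctnnb1, beta-catenin, stood at 603, 634 and 471 TPM and Axin2, a feedback target of Wnt signalling, at 236, 227 and 229. Myc was at 347, 326 and 505 TPM, highest in replicate 3. Hras (197 ± 52.4 TPM) exceeded Nras (86.3 ± 2.63) in every library, at 230.2, 225 and 137 for Hras. Tert, the telomerase catalytic subunit, was at 3.71, 3.79 and 2.65 TPM.

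**Figure D4:**
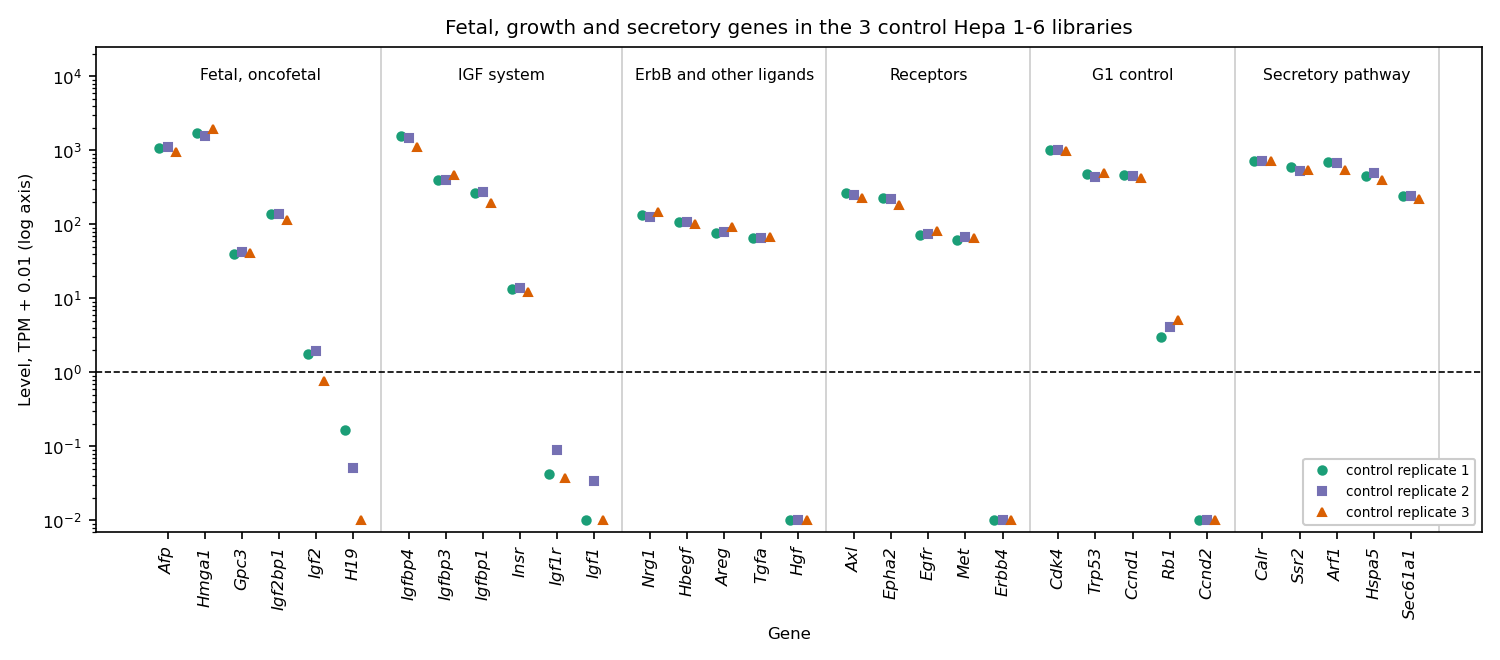
Level (TPM + 0.01, log axis) of fetal, growth and secretory pathway genes in each control library; the dashed line marks 1 TPM and points at 0.01 are libraries without a count. Igfbp4, Igfbp3 and Igfbp1 stand above 100 TPM while Igf1r and Igf1 stand below 1 TPM.

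The epithelial character of the cells was partial. Krt18 (1683, 1620 and 1423 TPM) and Krt8 (976, 933 and 749 TPM), the keratin pair of simple epithelia, were both high, with Krt8 at 0.561 ± 0.0298 of Krt18. Jup, Krt20, Cldn4, Tjp1 and Cldn3 also exceeded 100 TPM. Cdh1 had 48 counts (0.189 ± 0.0289 TPM), Ocln 16 and Cldn7 and Esrp1 none, and the hepatocyte connexin Gjb1 had 17. Of 16 mesenchymal genes 6 were expressed, led by Fn1 and Vim (181 ± 21.4 TPM). Snai1 stood at 43.0 ± 8.08 TPM, while Snai2, Twist1, Col1a2, Fap and Thy1 had no count.

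The label was checked against markers of liver cell types. Of 15 defining hepatocyte markers 8 were expressed, with a summed level of 1431 to 1494 TPM. The markers at or near 0 were Apoa1, Ahsg, Ttr, Serpina1a, Asgr1 (2 counts), Cps1 and Cyp2e1. Of 10 bile duct markers 6 were expressed, summing to 523 to 553 TPM, of which Spp1 made up 69.8%. They included Krt7 (79.2 ± 5.92 TPM), Sox9 (39.0 ± 10.8), Epcam (7.36 ± 0.509) and Krt19 (2.37 ± 0.333), and the duct-specific transporter gene Cftr had 6 counts. Control cells thus carried part of the hepatocyte markers, with bile duct markers beside them. In bulk RNA, a few cells with a high level and many cells with a low one cannot be told apart.

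Markers of other cell types were mostly low, apart from Dcn. Of 10 endothelial markers only Stab1 was expressed (6.53 ± 1.23 TPM), and the list summed to 5.89 to 8.36 TPM. Leukocyte and Kupffer cell markers summed to 13.7 to 17.8 TPM, from Cd68, Csf1r and Lyz2, while Ptprc, the common leukocyte antigen, had 14 counts and Adgre1 and Cd3e none. Erythroid markers summed to 6.23 to 8.87 TPM, mostly Epor. Stellate and fibroblast markers summed to 989 to 1366 TPM, above the bile duct markers, and Dcn made up 99.8% of that sum; Col1a1 had 68 counts, Acta2 1, and Lrat and Col1a2 none. Of 5 pluripotency markers none was expressed, Pou5f1, Nanog, Sox2 and Zfp42 having no count.

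To see which of these baseline levels differed in the knockout cells, counts were compared with edgeR's quasi-likelihood test and Benjamini-Hochberg adjustment over all 13661 genes tested. Both comparisons share the control libraries, so they are given side by side and not combined. In these groups the targeted gene, the delivery vector and the clones cannot be told apart. Fold changes are log2 values, knockout minus control, with their standard errors. Of the 626 members of the liver, secretory and growth lists in the table, 440 passed the filter on low counts. The members that failed it are largely the silent liver genes above, so the counts below describe the expressed part of the lists.

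Against the Usp5 knockout, 143 of the 440 members were called, 75 higher in the knockout and 68 lower (32.5%), where 19.8% of all genes tested were called (9.96% higher and 9.80% lower). The count was 188 of 444 (42.3%) without control replicate 3, where 31.2% of all genes were called, 110 of 445 (24.7%) without Usp5 knockout replicate 2, where 11.7% were, and 114 of 435 (26.2%) in a fit of the 6 samples of both groups, where 12.9% were. With library sizes alone in place of TMM scaling the split was 63 higher and 90 lower. All genes tested then split into 1026 higher and 1833 lower, so the balance between directions depends on the scaling. The secretory machinery and the cell cycle and growth genes were called in 9 of 85 (10.6%) and 10 of 82 (12.2%), both below the share of all genes. These counts were 18 and 17 without control replicate 3, where 31.2% of all genes were called, and 3 and 6 without control replicate 2, where 10.7% were. Secreted matrix and tumour factors were called in 27 of 42 (64.3%), 18 higher and 9 lower. The difference between these shares was not tested. Of the 75 members called higher, 2 lay under the filter's minimum in at least 1 control library. Of the 68 called lower, 12 did so in at least 1 Usp5 knockout library. Some of these passed the filter through the other libraries, so the split is not support for a direction.

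The most abundant baseline gene of the lists, Apoe, rose from 4471, 4213 and 3937 TPM to 8464, 7113 and 7882 in the Usp5 knockout (log2 1.01 ± 0.10 SE, adjusted p = 6.78e-05), and the groups did not overlap. Clu rose by 0.73 (adjusted p = 0.00374), Fn1 by 0.66 (0.00115) and Alb by 0.66 (0.00479), all on the log2 scale by edgeR. Hmga1 (log2 0.41, edgeR adjusted p = 0.0386) and Calr (log2 0.26, adjusted p = 0.0477) passed narrowly. Their calls were lost in 8 and 11 of 16 alternatives, with adjusted p from 0.00296 to 0.149 and from 0.00475 to 0.156. The largest rises were those of Tgfbi (a matrix protein), Serpind1 (heparin cofactor II) and Acmsd (an enzyme of tryptophan breakdown), all low in control cells: 0.871, 0.852 and 0.594 TPM for Tgfbi, 0.222, 0.258 and 0.187 for Serpind1 and 1.06, 1.37 and 1.73 for Acmsd. The log2 changes of Tgfbi and Acmsd were 1.91 and 1.77, and Serpind1 went from 26 to 84 counts.

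Some baseline genes were nearly gone in the Usp5 knockout. Ccl2 had 4127 counts over the control libraries and 2 over the Usp5 knockout libraries. Mmp9, a gelatinase, had 161 counts against 3. C3 fell from 107, 106 and 101 TPM to 2.39, 2.36 and 2.51 (log2 -5.31 ± 0.08 SE, edgeR adjusted p = 9.99e-11). Of the defining hepatocyte markers that passed the filter, only Tat fell, from 1.76, 1.62 and 1.71 TPM to 0.0532, 0.0259 and 0.0650. It had 225 counts over the control libraries and 6 over the Usp5 knockout libraries, which lay under the filter's minimum. The difference in Tat is therefore given without a test. Gpc3 fell by 2.26 on the log2 scale, from 40.0, 42.7 and 41.6 TPM to 6.87, 7.80 and 9.49 (adjusted p = 3.70e-07 by edgeR), and the groups did not overlap for any of these genes.

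Against the Ythdf1 knockout, 245 of the 440 members were called, 151 higher and 94 lower (55.7%), where 46.5% of all genes tested were called (23.7% higher and 22.8% lower). With library sizes alone the split was 114 higher and 129 lower, where all genes tested split into 2159 higher and 4185 lower. Plasma protein genes were called higher in 34 and lower in 15 of 70 tested, and hepatocyte transcription factors higher in 16 and lower in 4 of 28. With library sizes alone these counts were 29 and 16, and 14 and 5. Of the plasma protein genes called higher, 4 lay under the filter's minimum in at least 1 control library, as did 1 of these transcription factors. Some of these passed the filter through the knockout libraries, so the counts of higher genes are not support for a direction. Without Ttr and Serpina1a, 9 of the 15 defining hepatocyte markers were tested. Of these, 7 were higher in the knockout and none lower, and 6 were higher with library sizes alone.

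Apoe rose to 9127, 8556 and 9447 TPM in the Ythdf1 knockout (log2 1.37 ± 0.10 SE, edgeR adjusted p = 7.13e-06). Alb rose by 1.08 on the log2 scale (adjusted p = 0.000125), to 962, 1155 and 949 TPM, and Fgb by 1.34 (adjusted p = 6.28e-06), to 45.3, 51.1 and 47.8 TPM, by the same test. Afp rose by 0.46 (edgeR adjusted p = 0.00108). Each of these genes lay higher in every knockout library than in any control library. Hmga1, at log2 0.39 (edgeR adjusted p = 0.0227), overlapped between groups and lost its call in 6 of 16 alternatives (adjusted p from 0.00196 to 0.0860). Aldh1a1 fell by 0.43 on the log2 scale, to 633, 646 and 656 TPM (edgeR adjusted p = 0.00366), with no overlap.

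Several genes that the control cells lacked were counted in the Ythdf1 knockout. Serpina1a went from 4 counts over the control libraries to 204 and stood at 3.59, 3.77 and 3.59 TPM. Serpina1b stood at 3.63, 4.24 and 4.10 TPM. Serpina1d went from 0 counts to 16, and Serpina1c went the other way, from 18 to 0. As these copies are near-identical, the split of counts among them is uncertain. Ttr went from 7 to 86 counts, at 1.54, 1.81 and 1.22 TPM. Serpina1a, Serpina1b and Ttr passed the filter on low counts because of the Ythdf1 knockout libraries, so their differences are given without a test. The largest falls were those of Tfpi, from 46 counts to 4, Ccl2, to 17.4, 16.4 and 15.7 TPM (log2 -2.17), and F5, from 281 counts to 56. Ttr and Serpina1a stayed under 5 TPM in every knockout library, far below Alb.

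**Figure D5:**
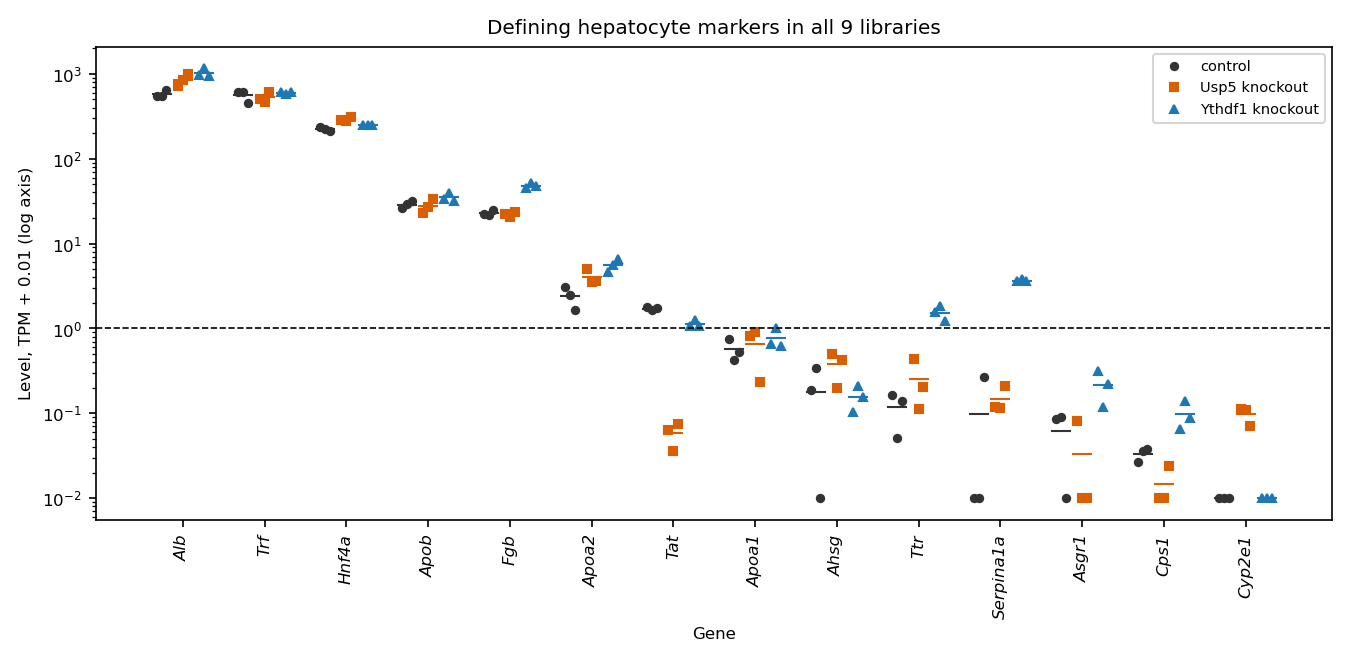
Level (TPM + 0.01, log axis) of 14 of the defining hepatocyte markers in the 3 control, 3 Usp5 knockout and 3 Ythdf1 knockout libraries; short lines are group means, the dashed line marks 1 TPM and points at 0.01 are libraries without a count. Serpina1a and Ttr stand above 1 TPM in the Ythdf1 knockout alone, and Tat is lowest in the Usp5 knockout.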

How the data were processed

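RNA-seq libraries of 3 control, 3 Usp5 knockout and 3 Ythdf1 knockout samples were analysed. The authors deposited estimated counts per gene, written as whole numbers and not scaled, with a length per gene. The submitters' processing notes name fastp 0.23.2, STAR 2.7.10a, Salmon 1.9.0 and GRCm39; annotation, strand setting and filters are not given in the sources used here. Without a stated strand setting, overlapping antisense genes may share reads.

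Counts were divided by the deposited length and scaled to a sum of 1000000 per library (TPM). Groups follow the sample titles. Knockouts were compared with control in 1 fit of all 9 samples with edgeR 4.0.16 (TMM scaling, filterByExpr, quasi-likelihood test, Benjamini-Hochberg adjustment, threshold 0.05) in R 4.3.3, tested on simulated data. Since nothing says that replicates were separate cultures, the spread that each p-value measures is that of these samples alone and may be technical. Nuclear copies of mitochondrial genes were found with blastn 2.17.0. Of the listed symbols, G6pc1 and Srpra matched no gene in the counts, and Aldoa, on 2 rows, was left out of the pairs. Named genes were the 30 most abundant, list and pair members, the 10 genes of widest spread, both targets and, per comparison, the 5 most abundant called members and the 3 largest changes per direction. Members and lists were chosen with earlier results of these data known. Alternatives were DESeq2 1.42.0, other scalings, filters, thresholds and lengths, a replicate block and leaving out each library. The replicate numbers were not used to pair the samples, except in the replicate block. Results for some listed genes are not reported here.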

Additional observations from a re-analysis of the deposited data

How the results depend on the processing

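Effective length moved 95 of 501 levels by over 1.5 times. Leaving out control replicate 3 moved 6, all of mitochondrially encoded genes or their nuclear copies. Depth limits genes of a few counts. The 100 most abundant genes held 20.1% of abundance without length, 26.4% without mitochondrial genes and their nuclear copies, and 35.8% with effective length, the last 2 chosen after seeing the data. Leaving out each control library in turn gave 29.2 to 32.1%, 11533 to 11668 expressed genes, 421 to 422 expressed list members and 16 of 18 pairs each time. Thresholds of 0.5 and 5 TPM gave 12302 and 9376 genes.

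Genes called against the Usp5 knockout numbered 1756 in a fit of those 6 samples alone, and 1494 to 4371 when 1 library was left out: 1736 without control replicate 1, 1494 without control replicate 2, 4371 without control replicate 3 and 1626 without Usp5 knockout replicate 2. Against the Ythdf1 knockout the range was 4848 to 6479. The median log2 change of all genes moved to -0.097 and -0.121 with library sizes alone, where 1026 genes were higher and 1833 lower in the Usp5 knockout, and 2159 higher and 4185 lower in the Ythdf1 knockout. Usp5 in the Ythdf1 knockout, not called, turned from log2 0.067 to -0.080 with library sizes alone and ranged from -0.031 (without control replicate 3) to 0.135 when 1 library was left out, with -0.011 without Ythdf1 knockout replicate 1. The cause was not tested.

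Same-numbered samples correlated from -0.257 to 0.298, and differently numbered samples of 2 groups from -0.333 to 0.345. These values showed no pairing by number. The labels name no batch, and 3 samples per group are too few to decide on one. With the replicate block 2346 and 6198 genes were called. Gene length from the reference annotation was not run, since that reference is of another build.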
